A study of Homo sapiens with 6 samples.

Results

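Keratins, the keratin-associated proteins of hair, claudins and the proteins of desmosomes were followed in DU145 prostate cancer cells after knockdown of E6AP. Members were taken by symbol: the numbered KRT, KRTAP and CLDN genes, DSG1 to DSG4, DSC1 to DSC3, DSP, JUP and PKP1 to PKP4, without CLDN11, and with pseudogene rows and antisense rows left out. By that rule 78 of the 33835 gene rows were members, of which 38 had enough reads to be tested. They comprised 14 type I keratins, 19 type II keratins, KRT222, 15 keratin-associated proteins, 18 claudins, 5 desmosomal cadherins and 6 proteins of the desmosomal plaque.

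E6AP is a ubiquitin ligase encoded by UBE3A. DU145, an established human cell line from a metastasis of prostate carcinoma, was transduced with a short hairpin directed at E6AP in 3 libraries (the shE6AP group) and with a control named wobble in the other 3 (the wobble group), and both received doxycycline at 0.2 µg/ml for 2.5 days to induce the hairpin. RNA was sequenced with a kit that does not mark strand. The labels give neither the wobble sequence nor the number of hairpins, and do not say whether each group was a clone or a pool or whether its libraries were separate cultures, so the p-values rest on the spread among these 6 libraries, part of which could be technical.

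Keratins are the intermediate filament proteins of epithelial cells. A filament is an obligate pair of an acidic type I chain and a basic type II chain; KRT8 and KRT18 form the pair of simple epithelia such as the glandular epithelium, with KRT7 and KRT19 joining them in many ducts, while KRT5 and KRT14 mark basal cells. Desmosomes tie these filaments to the cell border: the cadherins DSG and DSC bridge neighbouring cells, plakoglobin (JUP) and the plakophilins (PKP) bind their tails, and desmoplakin (DSP) links the plaque to keratin. Claudins are membrane proteins that set the seal and the ion selectivity of tight junctions.

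Sequencing depth was 21558506 to 30488217 reads on genes per library, and the members took 0.387% to 0.461% of those reads. UBE3A stood at 54.1, 55.4 and 57.9 CPM in wobble libraries 1 to 3 and at 14.2, 14.5 and 14.97 CPM in shE6AP libraries 1 to 3. CPM are reads of a gene scaled to a common library size with edgeR's TMM factors, and group values are mean ± SD over the 3 libraries. UBE3A was thus at 26.1% of the wobble level (log2 fold change -1.94, SE 0.0512, adjusted p 2.52e-31, quasi-likelihood test of edgeR, Benjamini-Hochberg adjusted over the 19433 genes tested). All p-values below come from that fit with that adjustment, a gene is called where the adjusted p is under 0.05, and fold changes are of shE6AP over wobble.

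Of the 38 members tested, 14 were higher and 9 lower in shE6AP, and 15 did not pass the threshold. Among all genes tested, 28.6% were higher and 30.4% lower, 59.0% in all, so the members' called share of 60.5% was near the background. Their median log2 fold change was 0.14, beside 0.0084 for all genes tested, and their median size of change without sign was 0.26, the same to 2 decimals as for all genes. A change of at least 2-fold was called upward in 3 members (KRTAP2-1, KRTAP2-3 and KRT4; background 3.23%) and downward in 1 (CLDN7; background 3.51%). KRTAP2-1 and KRTAP2-3 passed the filter only through their reads in shE6AP, so a high level there was a condition of their being tested. The groups of libraries did not overlap in 16 members with higher and 8 with lower levels in shE6AP, against 30.6% and 31.9% of all genes, or 62.6% in either direction. Under a test against a minimum fold of 1.2 (glmTreat), 10 members were higher and 4 lower, with backgrounds of 13.1% and 15.9%. The 18 members of at least 20 CPM in either group split into 7 higher, 7 lower and 4 not passing, 77.8% called beside 77.1% of all genes at that level.

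**Figure D1:**
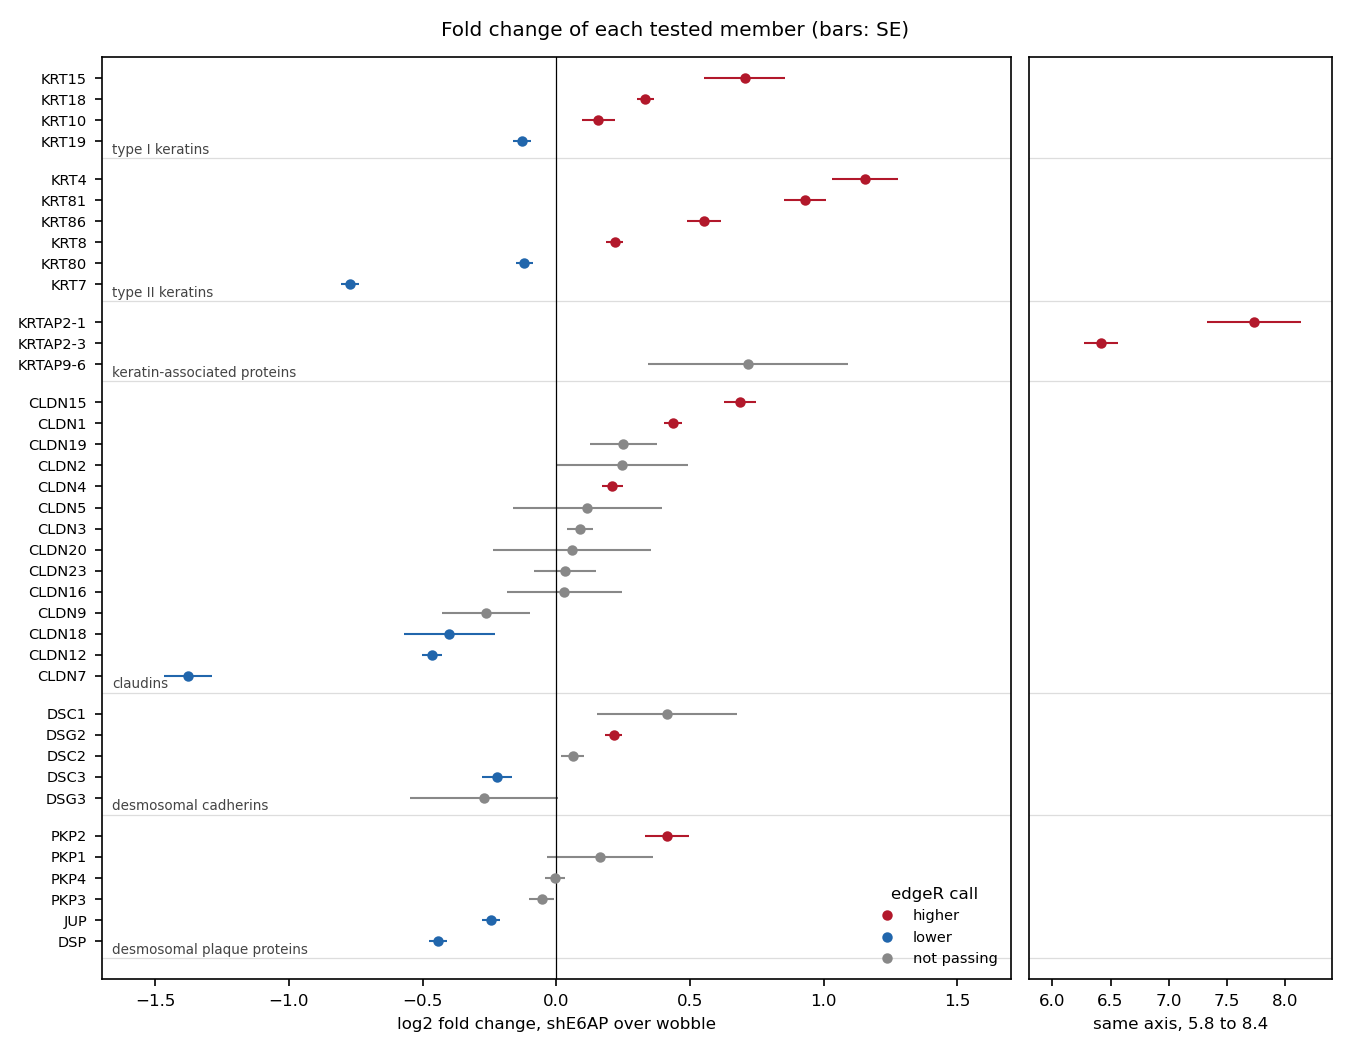
Plotted on the horizontal axis is the log2 fold change (shE6AP over wobble) of each of the 38 members tested, grouped by family, with SE bars and colour for the edgeR call. Within the left panel KRT4 lies farthest right and CLDN7 farthest left, while KRTAP2-1 and KRTAP2-3 needed the right panel, which continues the same axis.

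The type II keratins went in both directions: KRT4, KRT81, KRT86 and KRT8 were higher in shE6AP, and KRT7 and KRT80 were lower. KRT7, a type II keratin of ductal and other simple epithelia, was the most abundant member. Its level was 1979.8, 1887 and 1865 CPM in wobble libraries 1 to 3 and 1125, 1124 and 1109.7 CPM in shE6AP libraries 1 to 3. Every shE6AP library lay far below every wobble library. The mean went from 1911 ± 61.01 to 1119.5 ± 8.57 CPM, 58.6% of the wobble level (log2 fold change -0.77, SE 0.0322, adjusted p 3.86e-24). In bulk RNA, fewer cells of a type and less RNA per cell cannot be told apart.

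KRT8, the type II partner of KRT18, went the other way. Wobble libraries 1 to 3 had 324, 313 and 317 CPM of KRT8 and shE6AP libraries 1 to 3 had 378, 371 and 362. The groups did not overlap, and the means were 318 ± 5.42 and 370.4 ± 8.34 CPM, so KRT8 rose (log2 fold change 0.22, SE 0.0317, adjusted p 8.49e-08). KRT80, a type II keratin that is widely expressed in epithelia, had 379.8, 369 and 370.2 CPM in wobble and 346, 345 and 339.7 CPM in shE6AP libraries. It was lower in each shE6AP library, by a small amount: 373 ± 5.91 against 343 ± 3.295 CPM (log2 fold change -0.12, SE 0.0312, adjusted p 0.00105).

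KRT4, the type II keratin of the suprabasal layers of mucosa, had the largest rise among the keratins, from a low level: 2.51, 2.21 and 2.25 CPM in wobble and 5.15, 5.11 and 5.297 CPM in shE6AP libraries 1 to 3. The group means were 2.33 ± 0.161 and 5.19 ± 0.0995 CPM, with no overlap (log2 fold change 1.15, SE 0.124, adjusted p 6.54e-11). KRT5, the basal-cell type II keratin, had 5 reads in the 6 libraries together and was not tested.

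All 4 type I keratins tested were called, 3 higher and 1 lower, beside 59.0% called of all genes tested and 77.1% of those of at least 20 CPM, where 3 of the 4 lie. KRT18 had 359.5, 343 and 349 CPM in wobble libraries 1 to 3 and 447, 444 and 433 CPM in shE6AP libraries 1 to 3. Every shE6AP library was above every wobble library, with means of 351 ± 8.32 and 442 ± 7.41 CPM (log2 fold change 0.33, SE 0.0317, adjusted p 2.34e-12). KRT19, a type I keratin of ductal epithelium, fell slightly, from 217, 213 and 214 CPM in the wobble to 200.4, 196 and 192 CPM in the shE6AP libraries. Those groups did not overlap either, with means of 215 ± 2.06 and 196 ± 4.02 CPM (log2 fold change -0.13, SE 0.0324, adjusted p 0.000672).

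KRT15, a type I keratin of basal and stem cells, was scarce, at 1.89 ± 0.253 CPM in wobble and 3.08 ± 0.241 CPM in shE6AP, and was called higher (log2 fold change 0.70, SE 0.151, adjusted p 8.95e-05). KRT10, the type I keratin of differentiating epidermis, had 26.02, 22.01 and 21.3 CPM in wobble and 27.6, 24.4 and 25.1 CPM in shE6AP libraries 1 to 3. Its groups overlapped, since wobble 1 exceeded 2 shE6AP libraries, and the call rested on a log2 fold change of 0.16 (SE 0.0615, adjusted p 0.0258). That call was lost without shE6AP 1 (log2 fold change 0.096, edgeR adjusted p 0.24), without wobble 2 (0.12, adjusted p 0.147) or without wobble 3 (0.099, adjusted p 0.205), with no low-count filter (adjusted p 0.0505), and with DESeq2 (adjusted p 0.0875). KRT14, the type I partner of KRT5, had 3 reads in all.

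These opposite movements changed the make-up of the keratin RNA. Summed over the 19 type II genes, levels were 2707, 2593 and 2574 CPM in wobble libraries 1 to 3 and 1889, 1877 and 1849.7 CPM in shE6AP libraries 1 to 3. The type II sum was thus lower in each shE6AP library, at 71.3% of the wobble mean. The 14 type I genes with a row summed to 605, 579.8 and 587 CPM in wobble and 679, 668 and 654 CPM in shE6AP, which was 113%. KRT17 had no row in the count table, so the type I sum and shares leave it out. KRT7 made up 72.8% ± 0.348 of the type II reads in wobble and 59.8% ± 0.215 in shE6AP, while the share of KRT8 went from 12.1% ± 0.177 to 19.8% ± 0.238 and that of KRT80 from 14.2% ± 0.177 to 18.4% ± 0.0302. Among type I reads, KRT18 went from 59.4% ± 0.168 to 66.2% ± 0.288 and KRT19 from 36.4% ± 0.434 to 29.4% ± 0.104. The ratio of KRT7 reads to KRT8 reads was 6.005 ± 0.116 in wobble and 3.02 ± 0.0471 in shE6AP, whereas KRT8 over KRT18 moved far less, from 0.907 ± 0.00606 to 0.839 ± 0.00638.

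**Figure D2:**
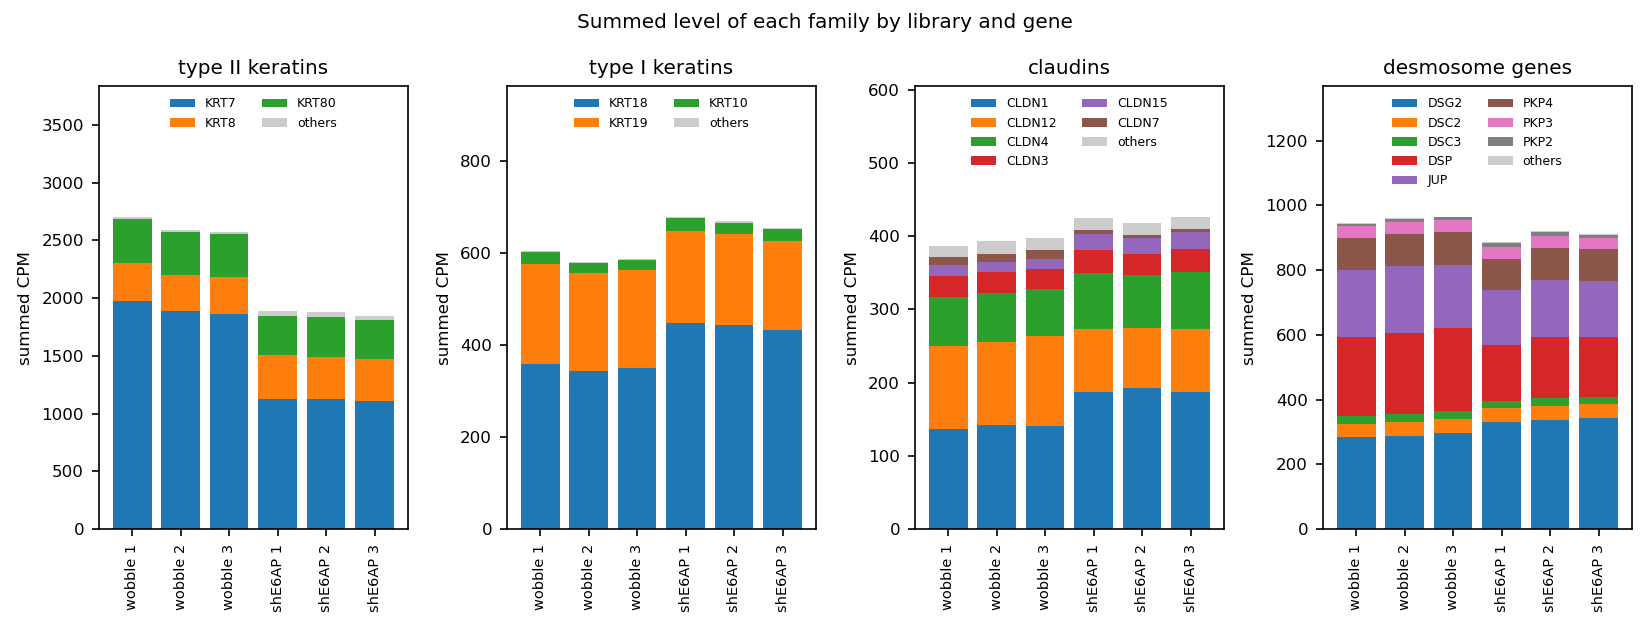
Each stacked bar is 1 library, its height the summed CPM of a family and its colours the genes of that family, with scarce genes under others. KRT7 reads make up most of the drop in the type II bars, from a mean of 2625 ± 71.98 to 1872 ± 20.2 CPM, and the desmosome bars stay close in height, at 957 ± 10.1 and 906 ± 17.3 CPM.

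Levels of different genes can be compared only per length, here as CPM per kb of the principal transcript in GENCODE 29. On that scale the order in wobble was KRT7 at 1089, KRT18 at 224, KRT19 at 154, KRT8 at 149.6 and KRT80 at 96.7 CPM per kb. In shE6AP it was KRT7 at 638, KRT18 at 283, KRT8 at 174, KRT19 at 141 and KRT80 at 89. With the lengths taken here, 2126 bases for KRT8 and 1390 for KRT19, KRT8 and KRT19 therefore changed places. They stood next to each other in wobble, where KRT19 libraries ran from 153 to 156 and KRT8 libraries from 147 to 152 CPM per kb. In shE6AP they were apart, at 138 to 144 and 170.2 to 178. These ranges give the spread of libraries and not the error of the lengths, so the close order in wobble is uncertain.

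KRT8 and KRT18 lie next to each other on opposite strands of chromosome 12 and share 135 exon bases in GENCODE 29, where reads cannot be given to either gene without strand. Rows for pseudogenes of the pair, which could share reads with it, were summed. The 11 KRT8 pseudogene rows gave 9.43 ± 0.799 CPM in wobble and 9.15 ± 0.221 in shE6AP, and the 21 KRT18 pseudogene rows gave 4.43 ± 0.468 and 6.12 ± 0.359 CPM. Both sums were small beside their parent genes.

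Among the hair keratins, the hard chains of the hair shaft, KRT81 and KRT86 of type II rose. KRT81 had 8.22, 7.96 and 6.75 CPM in wobble and 15.4, 13.6 and 14.6 CPM in shE6AP libraries 1 to 3, means of 7.65 ± 0.784 and 14.6 ± 0.926 (log2 fold change 0.93, SE 0.0796, adjusted p 1.02e-13). KRT86 had 12.02, 12.4 and 12.5 CPM in wobble and 18.02, 18.2 and 17.8 CPM in shE6AP, means of 12.3 ± 0.235 and 18 ± 0.227 (log2 fold change 0.55, SE 0.0644, adjusted p 5.7e-10). Neither gene's groups overlapped. The principal transcripts of KRT81 and KRT86 were 93.8% identical over 1432 aligned bases, with an identical stretch of 605 bases, so the split of reads between them is uncertain. KRT83, the neighbour of KRT81, had 37 reads over all libraries, and the 3 genes together summed to 20.1 ± 0.548 CPM in wobble and 32.9 ± 0.771 CPM in shE6AP.

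The largest fold changes were in 2 keratin-associated proteins, KRTAP2-1 and KRTAP2-3, which encode high-sulfur matrix proteins that embed the keratin filaments of hair. They neighbour each other and KRTAP2-4 among the members on the minus strand of chromosome 17. The 100 bases before the start of each gene are shown because KRTAP2-1 and KRTAP2-3 rose together from close to no reads, with KRTAP2-4 as their neighbour. These bases come from RefSeq on GRCh38.p14, minus strand, 5′ to 3′, and hold no exon bases. Capitals mark the 18-base run that the 3 sequences share, which contains the TATA box letters TATAAA.
KRTAP2-1 chr17:41047317-41047416: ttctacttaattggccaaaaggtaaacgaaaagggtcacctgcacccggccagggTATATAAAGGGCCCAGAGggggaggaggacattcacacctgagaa
KRTAP2-3 chr17:41060115-41060214: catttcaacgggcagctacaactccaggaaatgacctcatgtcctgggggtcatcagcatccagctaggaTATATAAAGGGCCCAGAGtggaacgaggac
KRTAP2-4 chr17:41065880-41065979: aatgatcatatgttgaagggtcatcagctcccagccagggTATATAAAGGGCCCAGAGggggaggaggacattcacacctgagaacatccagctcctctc
The run begins 45, 30 and 60 bases before the start of KRTAP2-1, KRTAP2-3 and KRTAP2-4. Searched on both strands of the 250 bases before the start of 35116 RefSeq promoters, it occurred in 4 (0.0114%), the other being that of KRTAP2-2. The letters TATAAA alone occurred in 10.72% of those windows. Such matches describe the sequence and name no bound factor.

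KRTAP2-3 had 8, 5 and 6 reads in wobble libraries 1 to 3 and 558, 414 and 450 reads in shE6AP libraries 1 to 3. Reads in every shE6AP library thus exceeded those of every wobble library by a wide margin, with means of 0.2195 ± 0.0456 and 19.2 ± 0.419 CPM (log2 fold change 6.42, SE 0.147, adjusted p 1.61e-33). Both KRTAP2-3 and KRTAP2-1 entered the test only through their reads in shE6AP. KRTAP2-1 had 0, 0 and 1 reads in wobble and 96, 67 and 92 reads in shE6AP libraries (edgeR adjusted p 1.06e-20). With 1 read in the wobble group, its ratio of shE6AP to wobble was 297.9 with an exact 95% counting interval of 53.0 to 11810, which covers counting error only. Below the filter, KRTAP2-4 had 4, 0 and 2 reads in shE6AP and none in wobble, and KRTAP3-1 had 3, 3 and 6 reads and none, at least 4.67-fold higher against a floor of 3 reads over the wobble group. The transcripts of KRTAP2-1 and KRTAP2-3 were 98.9% identical over 446 aligned bases, 57.5% of the shorter one. Those of KRTAP2-3 and KRTAP2-4 were 99.5% identical over 428, 56.0% of the shorter one. The assignment of reads among the KRTAP2 genes is therefore uncertain.

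KRTAP9-6, the third keratin-associated protein tested, had 0.281 ± 0.0855 CPM in wobble and 0.473 ± 0.137 in shE6AP and did not pass (log2 fold change 0.72, SE 0.373, adjusted p 0.09604). Without shE6AP 1 it did, at a log2 fold change of 0.97 (edgeR adjusted p 0.0399). KRTAP5-9 had 1 read in shE6AP and 9 in wobble, a ratio of 0.13 with a 95% counting interval of 0.00296 to 0.937. Over all 15 genes the sum was 0.793, 0.8998 and 0.886 CPM in wobble and 23.8, 23.3 and 23.6 CPM in shE6AP libraries 1 to 3, mostly KRTAP2-3, which made up 81.7% ± 1.900 of it in shE6AP.

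Of 14 claudins tested, 3 were higher, 3 lower and 8 did not pass, with a median log2 fold change of 0.07. The called share was 42.9%, beside 59.0% of all genes tested. CLDN1, a sealing claudin of many epithelia and of the epidermis, was the most abundant per length of these, at 40.1 CPM per kb in wobble and 54.2 in shE6AP. Its level was 137, 142 and 140.4 CPM in wobble libraries 1 to 3 and 187, 192 and 188 CPM in shE6AP libraries 1 to 3. Every shE6AP library was higher, with means of 139.6 ± 2.74 and 189 ± 2.83 CPM (log2 fold change 0.44, SE 0.0333, adjusted p 3.12e-15). CLDN4, a claudin that restricts the passage of cations, had 66.8, 66.3 and 63.4 CPM in wobble and 76.1, 72.2 and 78.9 CPM in shE6AP. It was higher by less, with means of 65.5 ± 1.86 and 75.7 ± 3.38 CPM and no overlap (log2 fold change 0.21, SE 0.0396, adjusted p 1.29e-05). CLDN15, which forms cation channels in the intestine, had 14.4, 14.2 and 13.4 CPM in wobble and 23, 21.6 and 23.02 CPM in shE6AP. Its groups were apart as well, at 14.02 ± 0.548 and 22.6 ± 0.793 CPM (log2 fold change 0.69, SE 0.0607, adjusted p 2.59e-13).

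CLDN7, a claudin of the lateral membrane that is known to bind EPCAM, had the largest fall of the members tested. It stood at 11.3, 11.1 and 11.5 CPM in wobble libraries 1 to 3 and 4.59, 4.17 and 4.21 CPM in shE6AP libraries 1 to 3. The shE6AP libraries were all far below the wobble libraries, at 38.3% of the wobble level (log2 fold change -1.38, SE 0.0907, adjusted p 2.56e-17). EPCAM, from the list of tight junction partners, was higher in shE6AP, at 17.7 ± 0.692 CPM in wobble and 36.4 ± 0.683 CPM in shE6AP (log2 fold change 1.04, adjusted p 2.67e-21).

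CLDN12, a claudin without the PDZ-binding tail of most others, was also lower: 114, 114 and 123 CPM in wobble and 86.1, 82.5 and 85.1 CPM in shE6AP libraries. The groups did not overlap, with means of 117 ± 5.499 and 84.6 ± 1.86 CPM (log2 fold change -0.47, SE 0.0376, adjusted p 1.75e-14). CLDN18, known from lung and stomach, had 2.15, 3.39 and 2.36 CPM in wobble and 1.86, 2.39 and 1.79 CPM in shE6AP, with overlapping groups, and was called lower near the threshold (log2 fold change -0.40, SE 0.1699, adjusted p 0.0401). Its call was lost in edgeR without shE6AP 1 (adjusted p 0.135), without shE6AP 3 (0.141) or without wobble 2 (0.42, log2 fold change -0.18), with upper-quartile scaling (0.0607), and with DESeq2 (0.15) and limma-voom (0.0624).

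CLDN3, the neighbour of CLDN4 on chromosome 7, had 28.96, 29 and 28.5 CPM in wobble and 31.4, 29.5 and 31.03 CPM in shE6AP. It did not pass although its groups did not overlap (log2 fold change 0.09, SE 0.0488, adjusted p 0.111). With upper-quartile scaling CLDN3 passed (edgeR adjusted p 0.0336). Neither did CLDN2, CLDN5, CLDN9, CLDN16, CLDN19, CLDN20 and CLDN23 pass; all stood under 5 CPM in both groups, with log2 fold changes from -0.26 (CLDN9) to 0.25 (CLDN19). CLDN19 came closest, at 3.23 ± 0.123 CPM in wobble and 3.85 ± 0.295 in shE6AP, again without overlap (adjusted p 0.0809). CLDN10 was too scarce to test, with 0, 3 and 1 reads in wobble and 12, 6 and 13 in shE6AP libraries.

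The claudin sum was slightly higher in shE6AP, and its make-up shifted. All 18 genes added up to 387, 393 and 397 CPM in wobble libraries 1 to 3 and 424, 418 and 427 CPM in shE6AP libraries 1 to 3, 108% of the wobble mean. CLDN1 went from 35.6% ± 0.457 to 44.6% ± 1.13 of that sum and CLDN12 from 29.8% ± 1.11 to 19.99% ± 0.276. CLDN7 went from 2.88% ± 0.0525 to 1.02% ± 0.0522. Per length, CLDN1 was followed in wobble by CLDN12, CLDN3 and CLDN4, at 32.8, 22.6 and 15.7 CPM per kb. In shE6AP the libraries of CLDN12, from 23.1 to 24.2 CPM per kb, overlapped with those of CLDN3, from 23.1 to 24.7, so these neighbours did not differ beyond their spread, and CLDN4 followed at 18.2.

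**Figure D3:**
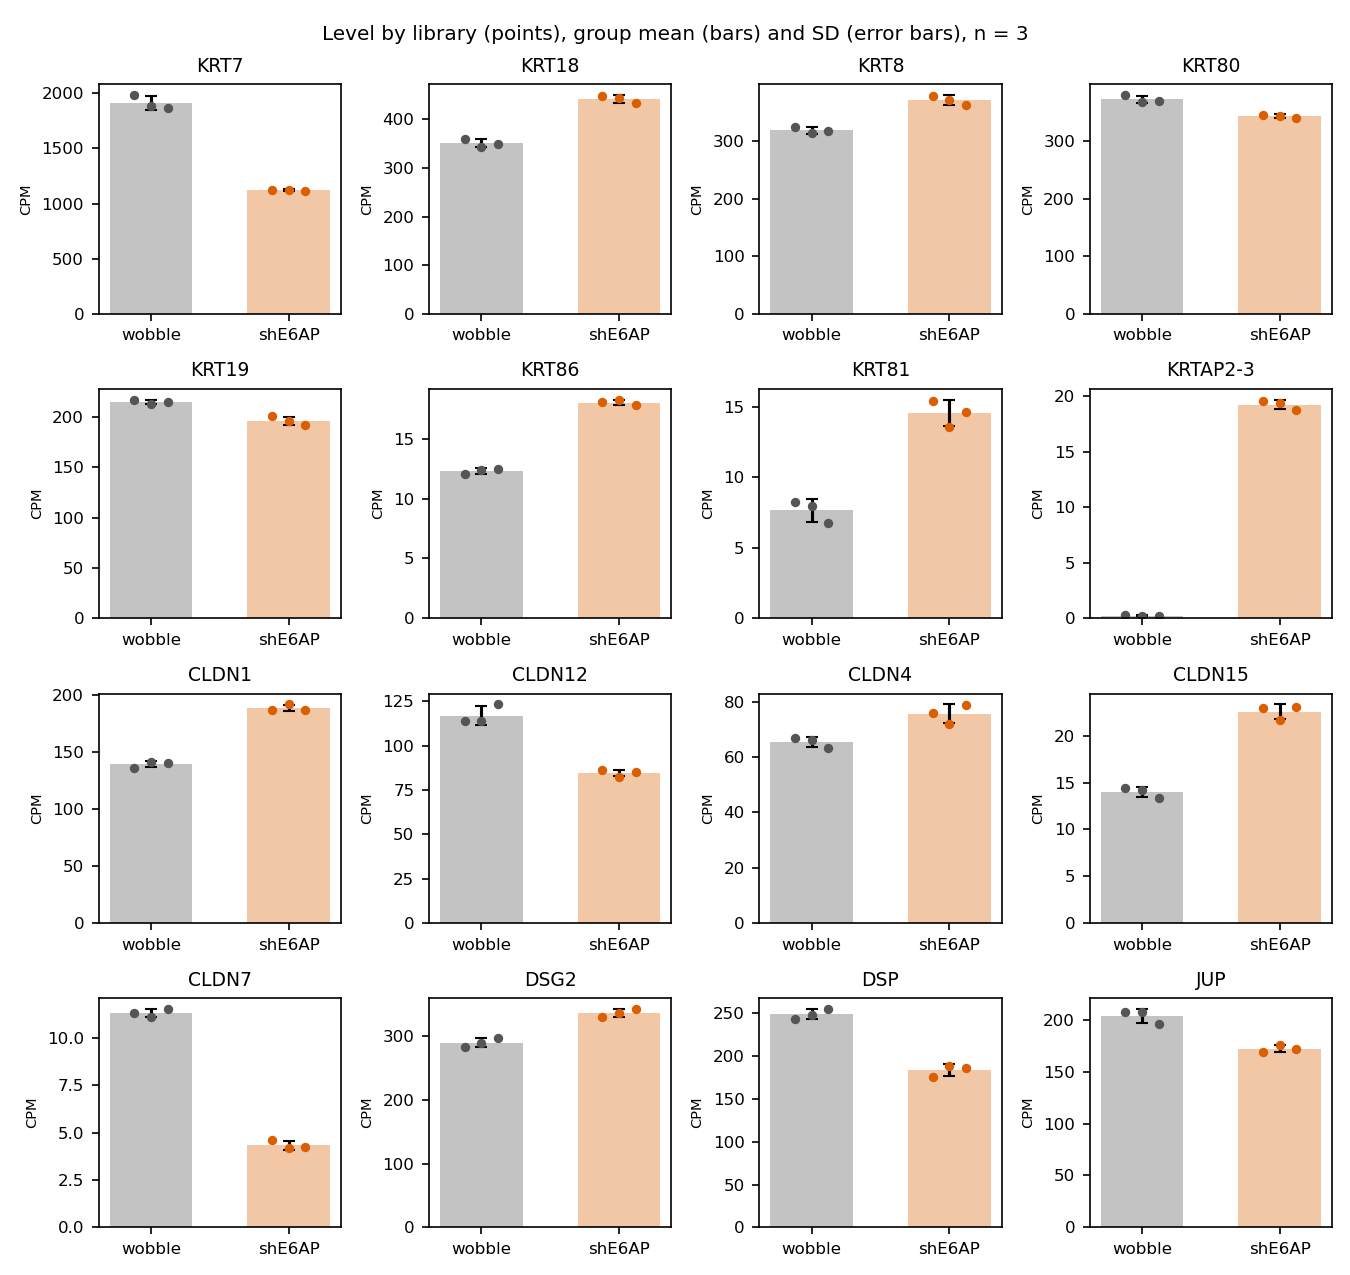
CPM (vertical axes, each from 0) is shown for 16 members in wobble and shE6AP, with a point for each library, bars for the group mean and error bars for the SD. The points of the groups do not overlap in these 16, which were picked for display. Of all 38 members tested, 14 had overlapping groups, and 62.6% of all genes tested had groups without overlap. Among the 16, the gap between groups is widest relative to the mean for KRTAP2-3 and CLDN7 and narrowest for KRT80 and KRT19.

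All 11 desmosome genes with a row in the count table were tested, while DSG1 and DSG4 had no row. Of the 11, 2 were higher, 3 lower and 6 not passing, with a median log2 fold change of -0.0047. The called share was 45.5%, beside 59.0% of all genes tested. Among the cadherins, DSG2, the desmoglein of simple epithelia, dominated with 80.8% ± 0.0794 of cadherin reads in wobble and 83.3% ± 0.495 in shE6AP. It had 284, 289 and 297 CPM in wobble libraries 1 to 3 and 330.1, 337 and 343 CPM in shE6AP libraries 1 to 3. Each shE6AP library was higher than each wobble library, with means of 290.0 ± 6.71 and 337 ± 6.45 CPM (log2 fold change 0.22, SE 0.03196, adjusted p 1.5e-07). DSC2, the desmocollin found with DSG2 in simple epithelia, had 40.8, 42.01 and 42.5 CPM in wobble and 42.8, 44.2 and 43.8 CPM in shE6AP and did not pass, although its groups did not overlap (log2 fold change 0.06, SE 0.0429, adjusted p 0.2205). DSC3, the desmocollin of basal layers, was lower, from 25.8, 25.5 and 26.4 CPM in wobble to 21.4, 24.1 and 21.4 CPM in shE6AP. Its means were 25.9 ± 0.482 and 22.3 ± 1.54 CPM without overlap (log2 fold change -0.22, SE 0.0551, adjusted p 0.000598). DSC1 and DSG3, cadherins of stratified epithelium, were under 1 CPM in both groups and did not pass (log2 fold changes 0.42 and -0.27).

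In the plaque, DSP and JUP were lower and PKP2 was higher. DSP, which anchors keratin filaments, had 243, 248 and 255 CPM in wobble libraries 1 to 3 and 175, 188 and 186 CPM in shE6AP libraries 1 to 3. Every shE6AP library was below every wobble library, at 73.7% of the wobble level (means 249 ± 5.89 and 183 ± 7.07 CPM, log2 fold change -0.44, SE 0.0339, adjusted p 3.59e-15). JUP, a plakoglobin that also binds classical cadherins, had 208, 207 and 196 CPM in wobble and 169, 175 and 172 CPM in shE6AP. Its groups were likewise apart, with means of 204 ± 6.62 and 172 ± 3.21 CPM (log2 fold change -0.24, SE 0.0336, adjusted p 2.89e-08). PKP2, the plakophilin of simple epithelium and heart, had 7.497, 9.24 and 8.08 CPM in wobble and 10.9, 11.4 and 10.8 CPM in shE6AP. Every shE6AP library exceeded the wobble libraries, with means of 8.27 ± 0.887 and 11.05 ± 0.3300 CPM (log2 fold change 0.42, SE 0.0823, adjusted p 2.77e-05).

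The other plakophilins did not pass. PKP3, the plakophilin found across epithelia, had 37.1, 36.9 and 36.2 CPM in wobble and 36.6, 35.3 and 34.1 CPM in shE6AP (log2 fold change -0.05, adjusted p 0.319). PKP4, an armadillo protein also found at adherens junctions, had 97.3, 98.4 and 102 CPM in wobble and 97.5, 101 and 97.8 CPM in shE6AP, a log2 fold change of -0.0047 with an SE of 0.0359 (adjusted p 0.922). Their groups overlapped. PKP1, of stratified epithelium, was at 1.42 ± 0.276 and 1.57 ± 0.379 CPM (log2 fold change 0.16, adjusted p 0.503). The ratio of DSP reads to DSG2 reads went from 0.858 ± 0.00105 in wobble to 0.544 ± 0.0143 in shE6AP. The 5 cadherins together went from 359 ± 7.97 to 404 ± 7.401 CPM, and the 6 plaque genes together went from 598 ± 3.498 to 502 ± 10.9 CPM.

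The 40 members not tested had 1 to 37 reads over the 6 libraries together, and 26 of them fewer than 10. Only CLDN10 and KRT34 reached 10 reads in any library. KRT34, a hair keratin of type I, had 8, 5 and 3 reads in wobble and 10, 2 and 6 in shE6AP. The untested members included the epidermal keratins KRT5, KRT6A, KRT6B, KRT6C, KRT14 and KRT16, of which KRT6B had the most, with 15 reads in all. At the depth of the shallowest library, 3 reads correspond to 0.139 CPM.

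Genes that work with these proteins were taken from lists of partners and regulators. Beside their counts, 28.6% of all genes tested were higher and 30.4% lower, 59.0% in all. Among those of at least 20 CPM, 77.1% were called. Called shares were 72.7% of tight junction partners, 77.8% of hemidesmosome genes and 77.8% of keratin and desmosome partners. They were 66.7% of other intermediate filament genes, 60% of cornified envelope genes and 81.8% of adherens junction genes. No list was tested as a set. Of 22 tight junction partners tested, 7 were higher and 9 lower (median log2 fold change -0.05). The scaffold CGN was higher, at 69.2 ± 1.99 CPM in wobble and 111 ± 3.17 in shE6AP (log2 fold change 0.69), and the scaffold TJP3 lower, at 25.2 ± 0.541 and 15.2 ± 1.01 CPM (-0.73). Hemidesmosome genes, which tie keratin to the basement membrane, had 4 of 9 higher and 3 lower (median 0.06). LAMB3, a laminin-332 chain, was at 149.9 ± 2.79 and 375 ± 6.44 CPM (log2 fold change 1.32), COL17A1 at 12.03 ± 0.621 and 25.1 ± 0.721 (1.06), and the integrin ITGB4 at 75.8 ± 0.6898 and 44.9 ± 2.89 (-0.76).

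Among 9 partners of keratins and desmosomes, 2 were higher and 5 lower (median -0.17), including FAM83H, which organises keratin filaments, at 211 ± 4.14 CPM in wobble and 144 ± 1.49 CPM in shE6AP (log2 fold change -0.55). The keratin-binding adaptor SFN (-0.40) and the plakin EPPK1 (-0.93) were also lower. Other intermediate filament genes had 4 of 12 higher and 4 lower (median -0.03). The nuclear lamin LMNB1 was higher (log2 fold change 0.76), and the neuronal filament INA (-1.43) and SYNM (-0.38) were lower. Of 10 cornified envelope genes tested, 3 were higher and 3 lower (median -0.0018), with the plakin PPL at a log2 fold change of -0.54, HRNR at 0.40 and FLG at -0.30. The envelope precursor IVL, chosen after its values were seen, had 18, 11 and 9 reads in shE6AP libraries and none in wobble, at least 14.8-fold higher against a floor of 3 reads over the group, and the list's median is the same with IVL at that bound. IVL is among the 3 called higher and entered the test only through its reads in shE6AP. Adherens junction genes had 4 of 11 higher and 5 lower (median -0.10), with the catenins CTNNA1 at a log2 fold change of 0.55 and CTNNB1 at -0.58, and VCL at -0.53.

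Of 11 epithelial transcription and splicing factors tested, 4 were higher and 2 lower (median 0.09), 54.5% called beside 59.0% of all genes tested. The splicing factors ESRP2, at 16.9 ± 0.371 CPM in wobble and 28.5 ± 2.31 in shE6AP, and ESRP1, at 1.44 ± 0.3105 and 3.63 ± 0.4998, were higher, and the ETS factor ELF3, at 67.1 ± 1.44 and 37.5 ± 2.13 CPM, was lower. Of 5 factors of epithelial-mesenchymal transition, 1 was lower and 4 did not pass (median 0.14), 20% called. The one lower was SNAI2, which encodes the repressor Slug, at 4.02 ± 0.588 CPM in wobble and 1.38 ± 0.224 CPM in shE6AP (log2 fold change -1.56, adjusted p 2.25e-11).

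**Figure D4:**
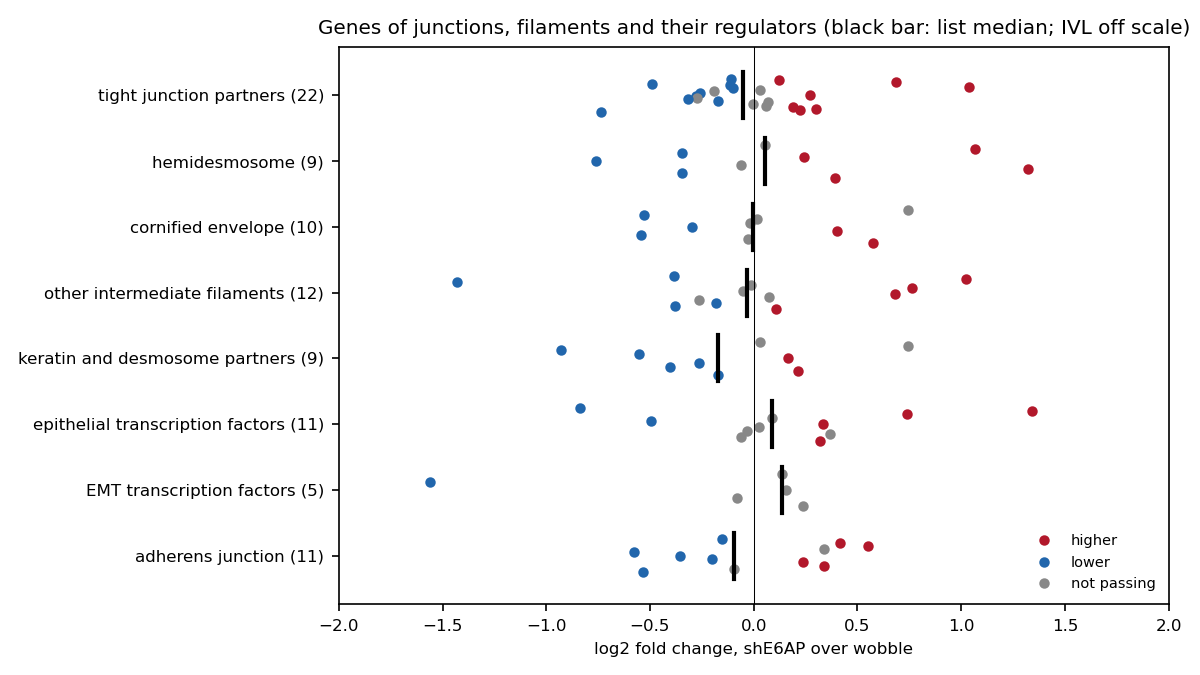
The horizontal axis gives the log2 fold change (shE6AP over wobble) of the tested genes of 8 lists of junction, filament and regulatory genes, with a point for each gene, colour for the edgeR call and a black bar for the list's median. IVL is off the scale to the right. The medians of the 8 lists lie between -0.17 and 0.14, and each list but 1 has called genes on both sides of 0.

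Markers of basal prostate cells and of other cell types were read beside the keratins. Among all genes tested, 28.6% were higher and 30.4% lower. Of 7 basal markers, 4 were tested, CD44 (-1.54) and ITGB4 were lower and KRT15 higher. The basal sum was 373 to 382 CPM in wobble and 147 to 158 CPM in shE6AP, nearly all CD44 and ITGB4, while the defining markers KRT5, KRT14 and TP63 were each under 1 CPM. Neuroendocrine markers summed to 41.9 to 44.8 and 47.5 to 53.2 CPM, with 2 of 4 tested higher (NCAM1 at 3.55 and ENO2 at 0.19) and SYP lower. NCAM1 had 4, 3 and 2 reads in wobble and 29, 36 and 29 in shE6AP libraries, and passed the filter only through shE6AP. ENO2 made up most of the sum, at 38.9 ± 1.57 CPM in wobble and 44.5 ± 3.19 CPM in shE6AP. Fibroblast and endothelial markers summed to 14.4 to 17.6 and 18.8 to 20.2 CPM, with COL1A1 higher, COL1A2 lower, and DCN and LUM near 0. COL1A2 passed the filter only through wobble, with 37, 38 and 29 reads there and 7, 6 and 5 in shE6AP. Blood cell markers summed to 4.17 to 6.24 and 7.54 to 8.26 CPM, with CD14 and CSF1R higher and the defining PTPRC at 0.267 CPM in wobble and 0.359 CPM in shE6AP. No marker of these lists with a row was at 0 in every library, and the part of these genes in the keratin, claudin and desmosome results was not tested.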

How the data were processed

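The authors used TopHat2 2.0.13, Bowtie2, HTSeq and the hg19 build, per the submitters' processing notes; which annotation and strand setting is not given in the sources used here. The deposited table holds raw counts per gene. Of its 33839 rows, 2 summary rows (14.6% to 16.0% and 2.05% to 2.21% of reads), 1 nameless row (at most 4.59e-05%) and 1 without values were left out.

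edgeR 4.0.16 (R 4.3.3) was run on all genes with filterByExpr, TMM and the quasi-likelihood test, with group as the only term and Benjamini-Hochberg adjustment. CPM used TMM-scaled sums of the tested genes; the SE was derived as log2 fold change divided by the root of the F statistic. The members and lists were chosen with earlier results of these data known. Every tested member is named; called members of at least 5 CPM and all of at least 20 CPM get each library's value; of each list up to 3 called genes of at least 1 CPM were named, by smallest p. Untested members were named from 10 reads in a library; other scarce members, ratios of reads and summed pseudogenes were chosen after values were seen.

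Lengths, exon overlaps and transcripts came from GENCODE 29 on GRCh38, not the build of the counts, and were matched by symbol for all 78 members; RefSeq promoters matched 48. No library repeated another (chi-square per gene 1.86 to 3.79 within groups, 47.7 to 55.3 between). Counting intervals and floors cover counting error only. Alternatives were DESeq2 1.42.0, limma-voom (limma 3.58.1), scaling by RLE, by upper quartiles or by library totals, no filter, a filter of 1 CPM in 3 libraries, a replicate block, glmTreat at 1.2 and each library left out; those on summed levels were added after seeing the data. The fit was tested on simulated data with 50 genes changed at each fold. It recovered 54% of those changed 1.2-fold, 80% at 1.5, 94% at 2 and 100% at 4. Of all its calls there, 6.82% were unchanged genes, so calls of small changes are the least certain. Results for some marker genes are not reported here.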

Additional observations from a re-analysis of the deposited data

How the results depend on the processing

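Of the 23 members called, 21 kept their direction and their call under every alternative except glmTreat; the exceptions were KRT10 and CLDN18. Against a fold of 1.2, glmTreat left 4 members lower, and in the lists left 2 higher and 2 lower tight junction partners, 2 lower other intermediate filaments, 0 higher and 3 lower keratin and desmosome partners, 2 higher and 1 lower epithelial factors and 3 lower adherens junction genes; fewer calls follow from testing against a larger change. DESeq2 left 1 epithelial factor lower. With a library left out, higher keratin and desmosome partners numbered 1 to 2 (1 without shE6AP 3 or wobble 2), lower epithelial factors 1 to 2 (1 without shE6AP 1, shE6AP 2, wobble 1 or wobble 3), higher EMT factors 0 to 1 (1 without shE6AP 2) and lower EMT factors 1 to 2 (2 without shE6AP 2 or wobble 1). The summed claudins had a log2 ratio of 0.11, and 0.14 with upper-quartile scaling. The median of all genes shifted by at most 0.0284 under another scaling.

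Signs turned in members that never passed. The log2 fold change of PKP4 was 0.024 with upper-quartile factors, 0.0050 with library totals and 0.0024 with the filter of 1 CPM. With each library left out, it ran from -0.025 to 0.0092 in PKP4 (above 0 without shE6AP 1, shE6AP 3 or wobble 3), from -0.074 to 0.16 in CLDN16 (below 0 without shE6AP 2 or wobble 1), from -0.073 to 0.12 in CLDN20 (without shE6AP 1 or wobble 2), from -0.032 to 0.097 in CLDN23 (without shE6AP 1 or wobble 1), from -0.13 to 0.31 in CLDN5 (without shE6AP 3) and from -0.085 to 0.30 in PKP1 (without shE6AP 1). Where nothing is said of the cause, the cause was not tested.

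Any pairing of the samples by replicate number was weak. Same-numbered libraries' deviations from their group means correlated at 0.0166 to 0.0438, and those of libraries with different numbers at -0.0325 to -0.00567. A fit with the replicate number as a block called 14 members higher and 9 lower, as without it. Over all genes it called 11979, beside 11467 without the block. Genes of few reads are limited by depth: 40 of 78 members could not be tested.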

Other observations

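The order of the keratin genes on chromosome 12 was KRT80, KRT7, KRT86, KRT81 and KRT83, with KRT4, KRT8 and KRT18 farther along, in GENCODE 29. KRT80 and KRT7 were lower in shE6AP and their neighbours KRT86 and KRT81 higher, with log2 fold changes of -0.12, -0.77, 0.55 and 0.93. KRT7 and KRT86 lie on the same strand and their gene bodies overlap, as do those of KRT81 and KRT86 on opposite strands, with 0 exon bases shared in either pair. DSG1 and DSG4 had no row in the count table and are left out of the order that follows. The desmosomal cadherin genes with a row follow on chromosome 18 as DSC3, DSC2, DSC1, DSG3 and DSG2. Their log2 fold changes were -0.22, 0.06, 0.42, -0.27 and 0.22, of which only the first and the last were called in edgeR.

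RefSeq (GRCh38.p14) gave 59 promoter windows of 250 bases before a start for 48 members, since a gene can have several starts, and these were searched on both strands. TATAAA occurred in 14 windows, the E-box CAGGTG in 12 and the AP-1 letters TGANTCA in 5, beside 10.72%, 17.49% and 6.57% of all 35116 windows. The 9 windows of lower members came from 6 of the 9 genes called lower, without KRT7, KRT19 and KRT80. Those of higher members came from 9 of the 14 called higher, without KRT15, KRT18, KRT81, KRT86 and PKP2. CAGGTG was in 4 of the 9 windows of lower members (1 each of CLDN7, CLDN18, DSP and JUP), 2 of 9 of higher members, 1 of 14 of members that did not pass and 5 of 27 of untested members. TATAAA was in 0 of 9 windows of lower members, 3 of 9 of higher members (KRT10 and the neighbours KRTAP2-1 and KRTAP2-3, alike in part of their transcripts), 1 of 14 of members that did not pass and 10 of 27 of untested members. Most TATAAA matches thus lay in untested genes. KRTAP2-1 and KRTAP2-3 passed the filter only through their reads in shE6AP. The motifs were counted separately, so a window can hold more than one. These are matches to letters in few genes, and binding was not measured.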
